A study of Mus musculus with 15 samples.

Results

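Erythroid genes were followed in mouse trigeminal ganglia, the sensory ganglia that supply the cornea, after corneal injury and treatment with a lipid mediator. The 9 genes were chosen by name from the 55573 rows of the count table and form 2 classes. The mature globins are Hba-a1, Hba-a2, Hbb-bs and Hbb-bt, and the precursor genes are Alas2, Slc4a1, Klf1, Epor and Ermap. RNA was sequenced from 15 right ganglia of male CD1 mice, an outbred strain, aged 10 weeks. All 3 groups, vehicle included, had been injured on that side by surgical removal of the outer layers of a central disc of cornea 2 mm wide. Drops were then given 3 times a day for 12 days and held vehicle, RvD6-standard or RvD6-isomer, with 5 ganglia in each group. RvD6-standard is resolvin D6, a lipid made from docosahexaenoic acid, and RvD6-isomer is a stereoisomer of it that was isolated from tears and cultured corneas of mice. The doses of the lipids are not given in the sources used here, and no ganglion of an uninjured mouse was analysed here.

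Red cells develop from marrow progenitors that respond to erythropoietin through its receptor Epor. Transcription factors such as Klf1 and Gata1 then switch on the globins, the heme enzyme Alas2 and the anion exchanger Slc4a1 (band 3) of the red cell membrane. Circulating red cells have no nucleus, but reticulocytes, the youngest cells in blood, still carry globin and Alas2 mRNA, while Klf1 mRNA belongs mainly to nucleated precursors. A dissected ganglion holds blood in its vessels and lies close to skull bone, so its RNA can contain both kinds of transcript. In such bulk samples, fewer cells of a type and less RNA per cell cannot be told apart.

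The globin genes come as near-identical copies, and reads that fit more than 1 place were not counted, so the bases that tell the copies apart are shown first. Hba-a1 (ENSMUSG00000069919.7, GRCm38 chr11:32283511-32284465, plus strand) and Hba-a2 (ENSMUSG00000069917.7, chr11:32296489-32297298, plus strand) encode adult alpha globin, and their coding sequences differ at 1 of 426 bases (C381T, counted from the first base of the start codon, from Hba-a1 to Hba-a2). Hbb-bs (ENSMUSG00000052305.6, chr7:103826534-103828096, minus strand) and Hbb-bt (ENSMUSG00000073940.3, chr7:103812524-103813996, minus strand) encode adult beta globin and differ at 1 of 441 coding bases (C417T, from Hbb-bs to Hbb-bt). The differing base is in capitals in these 60-base stretches of the GENCODE release 21 transcripts on GRCm38.
Hba-a1 coding bases 351 to 410: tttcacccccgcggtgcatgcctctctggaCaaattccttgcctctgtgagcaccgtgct
Hba-a2 coding bases 351 to 410: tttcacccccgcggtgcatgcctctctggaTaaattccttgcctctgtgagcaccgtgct
Hbb-bs coding bases 382 to 441: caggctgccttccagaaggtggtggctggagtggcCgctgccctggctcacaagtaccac
Hbb-bt coding bases 382 to 441: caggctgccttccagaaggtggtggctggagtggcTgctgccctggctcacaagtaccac
Of the 75-base stretches of its transcripts, 67.9% in Hba-a1, 84.6% in Hba-a2, 51.5% in Hbb-bs and 56.6% in Hbb-bt occurred unchanged in the other copy. A read from these stretches cannot be given to 1 gene, so each globin row counts the remainder of its transcript and the split between copies is uncertain. Alas2 shared 9.9% of its stretches with Apex2, which overlaps it on the opposite strand, and Slc4a1, Klf1, Epor and Ermap shared 0. The strand of the RNA was not kept, so reads from the overlap of Alas2 and Apex2 cannot be told apart.

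The promoters of the members were also compared, and no link between their letters and the transcript levels was tested. RefSeq promoters (GRCm38.p6, from 250 bases before to 50 bases after the start) were matched for 8 of the 9 genes, all but Slc4a1. They are printed for 3 globins and for 2 precursor genes of different function, with matches in capitals to CACCC (the box bound by Klf1), GATAA (the site of GATA factors) and TATAA (the TATA box), each on either strand. In Alas2 the letters TTATAA match TATAA on both strands, and 3 neighbouring CACCC matches on the minus strand run together.
Hba-a1 (chr11:32283422-32283721, plus strand): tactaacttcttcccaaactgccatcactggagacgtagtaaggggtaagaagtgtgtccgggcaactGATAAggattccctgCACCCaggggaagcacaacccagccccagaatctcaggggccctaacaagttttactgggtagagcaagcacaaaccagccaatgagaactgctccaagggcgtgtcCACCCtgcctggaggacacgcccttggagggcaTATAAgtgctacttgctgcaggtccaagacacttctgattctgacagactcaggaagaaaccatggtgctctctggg
Hbb-bs (chr7:103827879-103828178, minus strand): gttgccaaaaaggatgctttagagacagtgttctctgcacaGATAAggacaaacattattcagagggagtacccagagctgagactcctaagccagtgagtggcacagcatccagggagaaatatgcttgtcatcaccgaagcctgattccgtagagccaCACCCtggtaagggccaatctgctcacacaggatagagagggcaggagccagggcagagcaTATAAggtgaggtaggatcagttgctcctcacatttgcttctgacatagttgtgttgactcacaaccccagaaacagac
Hbb-bt (chr7:103813874-103814173, minus strand): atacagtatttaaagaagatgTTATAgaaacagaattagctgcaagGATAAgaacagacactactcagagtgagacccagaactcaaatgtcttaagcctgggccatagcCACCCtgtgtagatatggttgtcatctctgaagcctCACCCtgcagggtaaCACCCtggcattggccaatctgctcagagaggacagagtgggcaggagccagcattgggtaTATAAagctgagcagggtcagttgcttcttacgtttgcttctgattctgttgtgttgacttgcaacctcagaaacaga
Alas2 (chrX:150547167-150547466, plus strand): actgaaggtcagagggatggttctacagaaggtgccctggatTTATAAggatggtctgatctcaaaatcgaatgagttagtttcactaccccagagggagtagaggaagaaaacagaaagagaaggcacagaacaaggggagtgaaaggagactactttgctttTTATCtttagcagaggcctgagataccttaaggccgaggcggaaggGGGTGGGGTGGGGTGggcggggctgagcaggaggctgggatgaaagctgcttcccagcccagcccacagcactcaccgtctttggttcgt
Klf1 (chr8:84901732-84902031, plus strand): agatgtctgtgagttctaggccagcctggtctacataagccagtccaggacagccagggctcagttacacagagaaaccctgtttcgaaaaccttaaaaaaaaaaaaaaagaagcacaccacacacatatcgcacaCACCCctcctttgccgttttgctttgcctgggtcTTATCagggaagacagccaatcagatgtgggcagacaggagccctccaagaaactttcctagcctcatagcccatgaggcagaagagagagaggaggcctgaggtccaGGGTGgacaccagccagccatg
All 8 promoters held a CACCC match, and each held exactly 1 match to the GATA motif. Of 32851 RefSeq promoters of this length, 57.5% held the first motif, 25.4% the GATA motif and 24.9% the TATA motif. The TATA motif was present in 6 of the 8 windows and not in those of Klf1 and Epor. Each of the 4 globins held a plus-strand match that began between positions -30 and -27 from the start. In Alas2 the matches began at -208 and -207, and the Ermap match, at -30, was on the minus strand. The promoters of Hba-a1 and Hba-a2 shared an unbroken run of 297 bases, whereas the longest run shared by Hbb-bs and Hbb-bt was 14 bases. These matches are descriptions of the letters and not evidence of binding.

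Library totals ranged from 4125962 to 9903396 counts, with a median of 7756538, and the ganglia carried abundant sensory neuron, satellite glia and Schwann cell markers in all 15 libraries. RvD6-isomer replicate 15, the library with the fewest counts, stood apart from the other 4 of its group in all 9 erythroid genes. RvD6-standard replicates 8 and 9 held summed counts per 1000000 (CPM) of 6 skeletal muscle markers of 1562 and 2217, against 15.5 to 139.6 in vehicle. Values are therefore given with and without replicate 15, and those without replicates 8 and 9 stand with the processing results. No labels tie samples to batches, and p-values measure the spread between these ganglia.

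Mature globin transcripts were most abundant in the RvD6-standard group. Hba-a1 was present at 1404, 1056, 887, 1721 and 1056 CPM in vehicle replicates 1 to 5. It reached 3598, 2792, 3620, 1969 and 3547 CPM in RvD6-standard replicates 6 to 10, so the lowest of these lay above the highest vehicle ganglion. In the RvD6-isomer group it was 321.4, 1007, 466.2 and 412.1 CPM in replicates 11 to 14 and 3893 CPM in replicate 15. Thus 4 of the 5 RvD6-isomer ganglia lay in or below the vehicle range, and the fifth exceeded every other ganglion of the study.

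Hbb-bs showed the same order, with 868.5, 693.2, 623.7, 1402 and 645.9 CPM in vehicle and 2673, 2280, 2689, 1700 and 3050 CPM after RvD6-standard. In the RvD6-isomer group it was 282.2, 682.1, 413.8, 357.8 and 3147 CPM. Again the RvD6-standard and vehicle ganglia did not overlap and replicate 15 was the highest of all. Hba-a2 ranged from 343.2 to 680.7 CPM in vehicle, from 699.6 to 1457 after RvD6-standard and from 114.4 to 362.1 in RvD6-isomer replicates 11 to 14, with 1651 in replicate 15. Hbb-bt ranged from 493.8 to 1163, from 1279 to 2471 and from 202.1 to 532.9 CPM in the same order, with 3153 in replicate 15. Together the 4 globins made up 0.321% ± 0.106 (SD, n = 5) of all counts in vehicle and 0.871% ± 0.189 (n = 5) after RvD6-standard. After RvD6-isomer they made up 0.156% ± 0.0767 (n = 4) in replicates 11 to 14 and 1.27% in replicate 15.

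**Figure D1:**
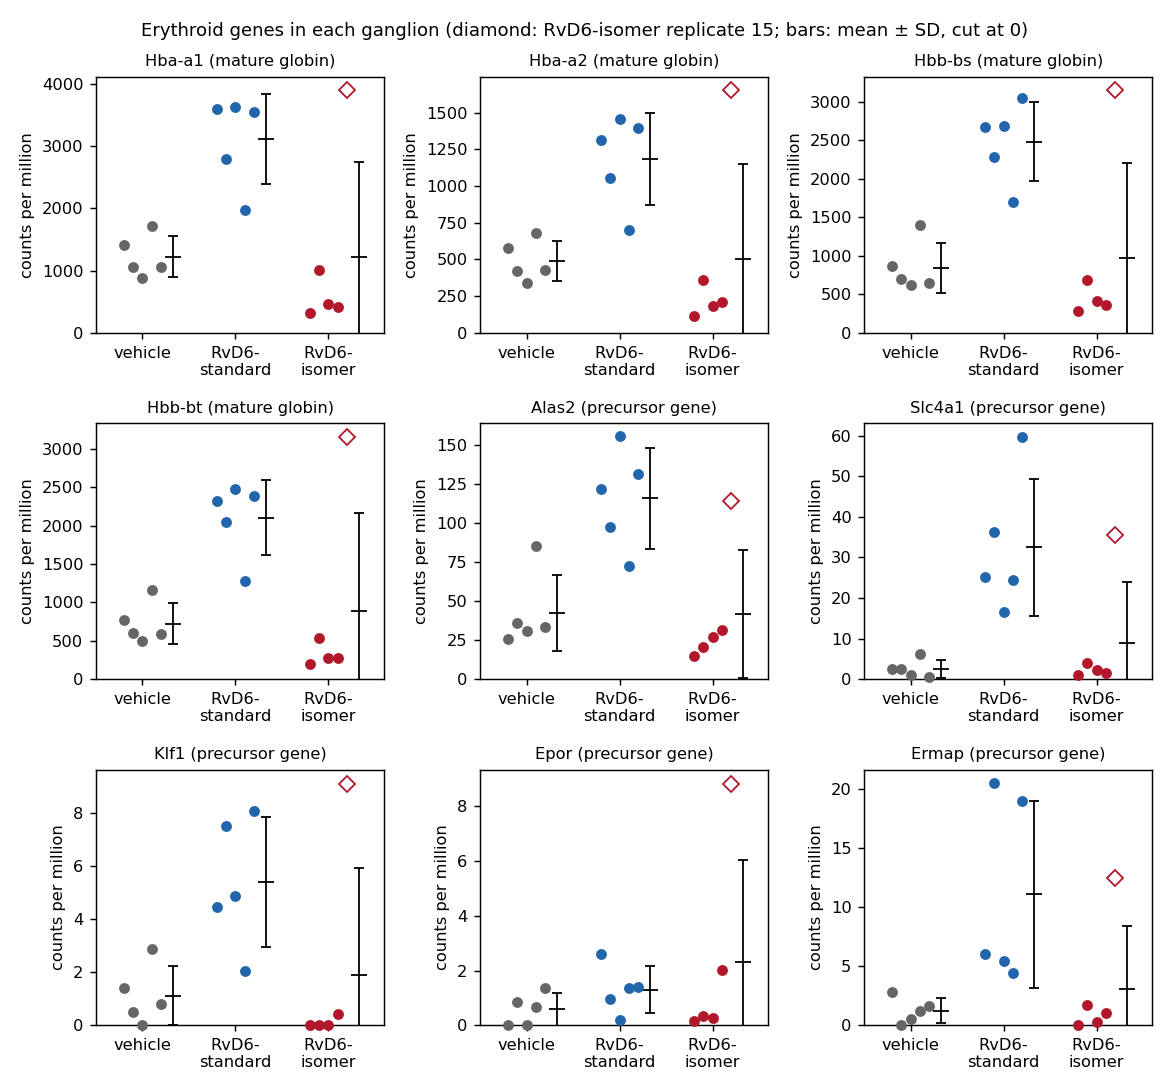
CPM (vertical axis, linear, from 0) of each of the 9 erythroid genes in the 15 ganglia, 1 point per ganglion by group, with the group mean and SD (n = 5) beside the points and SD bars cut at 0. The diamond is RvD6-isomer replicate 15, which lies far above the other 4 of its group in every panel, at 3893 CPM for Hba-a1 against 321.4 to 1007.

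Alas2, which encodes the erythroid form of the first enzyme of heme synthesis (ENSMUSG00000025270.13, chrX:150547375-150570638, plus strand), was the most abundant precursor gene. It stood at 25.6, 36.3, 30.9, 85.2 and 33.6 CPM in vehicle and at 121.9, 97.5, 156.1, 72.3 and 131.2 CPM after RvD6-standard. In the RvD6-isomer group it stood at 14.8, 20.4, 26.8 and 31.4 CPM in replicates 11 to 14 and at 114.0 CPM in replicate 15. Vehicle replicate 4 was the only vehicle ganglion to reach into the RvD6-standard range.

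Slc4a1, the red cell anion exchanger that appears late in red cell development (chr11:102348824-102366203, minus strand), separated the groups most. Its raw counts were 24, 21, 9, 45 and 4 in vehicle, 232, 296, 85, 143 and 429 after RvD6-standard, and 6, 37, 18, 11 and 157 after RvD6-isomer. The corresponding levels were 2.53 ± 2.24, 32.5 ± 16.8 and 8.89 ± 15.0 CPM (mean ± SD, n = 5 each), and 2.22 ± 1.35 CPM for RvD6-isomer without replicate 15 (n = 4). Every RvD6-standard ganglion lay above every vehicle ganglion, and only replicate 15 of the RvD6-isomer group reached them.

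Klf1, the erythroid transcription factor (chr8:84901928-84905291, plus strand), had low counts in most ganglia outside the RvD6-standard group. Its raw counts were 14, 4, 0, 21 and 7 in vehicle, 41, 61, 25, 12 and 58 after RvD6-standard, and 0, 0, 0, 3 and 40 after RvD6-isomer. A count of 0 in these libraries allows up to 3 counts, or 0.318 to 0.483 CPM. Vehicle and RvD6-standard overlapped for this gene, since the lowest RvD6-standard ganglion held 2.06 CPM and the highest vehicle ganglion 2.89 CPM.

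Ermap, a membrane protein of erythroid cells (chr4:119175457-119190011, minus strand), had raw counts of 28, 0, 5, 9 and 14 in vehicle, 56, 167, 28, 26 and 136 after RvD6-standard, and 0, 16, 2, 7 and 55 after RvD6-isomer. In CPM its RvD6-standard ganglia, from 4.46 to 20.5, all lay above the vehicle ganglia, from 0.0 to 2.82. Epor, the erythropoietin receptor (chr9:21958897-21963506, minus strand), did not separate the groups. Its raw counts were 0, 7, 0, 5 and 12 in vehicle, 24, 8, 1, 8 and 10 after RvD6-standard, and 1, 3, 2, 14 and 39 after RvD6-isomer.

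Per kilobase of exon, the vehicle levels ordered the genes as Hba-a1, Hbb-bs, Hbb-bt and Hba-a2, at means of 1508, 1103, 1026 and 734.9 CPM per kb, followed by Alas2 at 17.6, Klf1 at 0.731, Slc4a1 at 0.518, Epor at 0.295 and Ermap at 0.235. Ranges of neighbouring globins overlapped, as did those of the last 4 genes. Alas2, from 10.6 to 35.5 CPM per kb, was apart from both sets. The order of the globins also depends on how many reads each copy lost to the other.

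RvD6-standard against vehicle asks whether the lipid alters transcripts in the ganglion of an injured eye. In this comparison all 9 genes had positive log2 fold changes. Of the 16567 genes tested by edgeR, 0 had an adjusted p below 0.05 (0.0%), and the members accordingly gave 0 calls of 9. At an unadjusted p below 0.05, 7 of the 9 were higher, where 7.63% of all genes tested were higher. Those not passing were Klf1 (unadjusted p = 0.0765) and Epor (unadjusted p = 0.31). All RvD6-standard ganglia exceeded all vehicle ganglia in 6 of the 9, namely the 4 globins, Slc4a1 and Ermap, against 2.15% of all genes tested. The members were chosen with earlier results of these data known, so these counts describe the list.

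Slc4a1 had the largest difference, 12.9-fold higher after RvD6-standard (95% interval 3.73 to 44.9, adjusted p = 0.0967). Ermap was 8.74-fold higher (2.00 to 38.3, adjusted p = 0.198). Alas2 was 2.74-fold higher (1.41 to 5.32, adjusted p = 0.191). The globins were closely grouped, from 2.41-fold for Hba-a2 (1.13 to 5.17, adjusted p = 0.306) to 2.93-fold for Hbb-bs (1.40 to 6.12, adjusted p = 0.20). With the copies added together, alpha globin had a log2 fold change of 1.32 (SE 0.51, adjusted p = 0.277) and beta globin of 1.55 (SE 0.54, adjusted p = 0.224). The median log2 fold change was 1.44 for the 4 globins and 2.26 for the 5 precursor genes, beside 0.02 for all genes tested.

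The adjusted p of this comparison depended on RvD6-isomer replicate 15, although that library belongs to neither group, because all groups share 1 estimate of the spread. Without it the log2 fold changes were within 0.01 of the values above, and 4 of the 9 genes were called higher, against 0.293% of the genes tested. These were Slc4a1 (adjusted p = 0.0193), Hbb-bs (adjusted p = 0.0228), Hbb-bt (adjusted p = 0.0228) and Hba-a1 (adjusted p = 0.0461). DESeq2 with all 15 ganglia called Slc4a1 (adjusted p = 0.00854) and Ermap (adjusted p = 0.0499), against 0.853% of genes higher, and gave no p for Hba-a1 and Hbb-bt because of an outlying count. DESeq2 without replicate 15 called 7 (1.16% of genes higher), all but Klf1 and Epor. A fit to these 2 groups alone called 5 of 8 members with edgeR (0.234% of genes higher) and 8 of 9 with DESeq2 (1.59%).

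**Figure D2:**
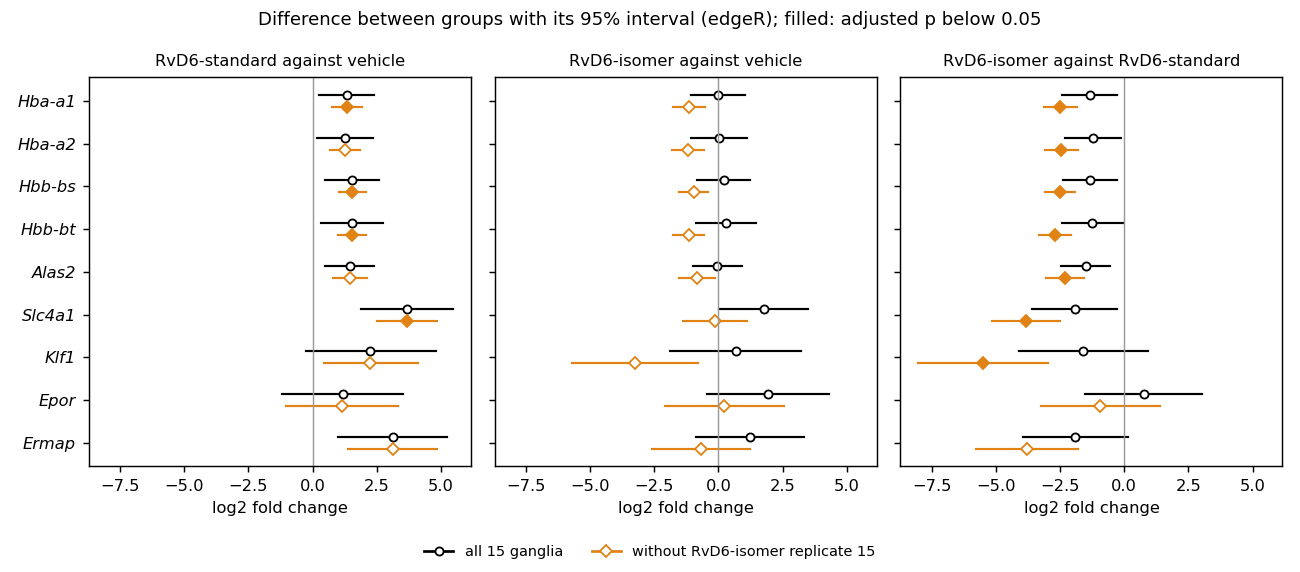
Log2 fold change (horizontal axis) with its 95% interval from edgeR for each gene, in 3 panels by comparison. Black circles use all 15 ganglia and orange diamonds leave out RvD6-isomer replicate 15, with filled symbols for an adjusted p below 0.05. Leaving out that ganglion narrows the intervals of the first panel and moves the globins from near 0 to between -1.18 and -0.96 in the second.

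RvD6-isomer against vehicle gave a different picture that rested on 1 ganglion. With all 15 ganglia, 0 of the 9 genes were called by edgeR, where 111 of 16567 genes were called (0.67%). The globins and Alas2 had folds close to 1, with intervals of 0.48 to 2.06 for Hba-a1 and 0.502 to 1.87 for Alas2. Slc4a1 was 3.41-fold higher (1.02 to 11.4, unadjusted p = 0.0469, adjusted p = 0.305), the single member at an unadjusted p below 0.05, where 8.69% of all genes were higher at that level. DESeq2 called 0 of the 4 members to which it gave an adjusted p. It called 920 of the 32491 genes to which it gave a p (2.83%), a total that includes genes left without an adjusted p.

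Without replicate 15, 8 of the 9 genes had negative log2 fold changes against vehicle, and Epor was the exception at 0.23. Hba-a1 was then 0.45-fold the vehicle level (0.295 to 0.688, adjusted p = 0.0677) and Hba-a2 0.442-fold (0.289 to 0.676, adjusted p = 0.0636). Hbb-bs was 0.513-fold (0.347 to 0.757, adjusted p = 0.0878) and Hbb-bt 0.447-fold (0.295 to 0.678, adjusted p = 0.0628). At an unadjusted p below 0.05, 6 of the 9 were lower, where 7.62% of the genes tested were lower, and edgeR called 0 of the 9 (0.511% of all genes). DESeq2 without that library called the 4 globins lower, with adjusted p from 0.00302 to 0.0117, against 1.22% of genes lower. For Slc4a1 the interval without replicate 15 ran from 0.381 to 2.16-fold. The ranges of both groups overlapped for each of the 9 genes, with or without that library. Over all genes tested, RvD6-isomer ganglia were all above vehicle in 2.45% and all below in 2.46%, or 3.8% below without replicate 15.

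The 2 stereoisomers were given on the same schedule and were compared directly as 1 pair. Whether their doses matched cannot be told from the sources used here. With all ganglia, 8 of the 9 genes had lower means in the edgeR fit after RvD6-isomer than after RvD6-standard, and 0 were called, where 37 of 16567 genes were called lower (0.223%). Alas2 had the smallest unadjusted p (0.00418, adjusted p = 0.281), at 0.354-fold the RvD6-standard level (0.182 to 0.689). The globins lay between 0.393-fold for Hba-a1 (0.187 to 0.824) and 0.425-fold for Hba-a2 (0.199 to 0.909). At an unadjusted p below 0.05, 6 of the 9 were lower, namely the 4 globins, Alas2 and Slc4a1, where 4.64% of all genes were lower. Epor was the exception to the direction, at a log2 fold change of 0.76 with an interval from -1.53 to 3.04. DESeq2 with all ganglia also called 0 members (0.412% of genes lower), and in none of the 9 did all RvD6-isomer ganglia lie below all RvD6-standard ganglia (1.1% of genes). These p-values do not show that the isomers act alike.

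Without replicate 15, 7 of the 9 genes were called lower after RvD6-isomer, against 0.833% of the genes tested. Alas2 was at 0.202-fold (0.122 to 0.336, adjusted p = 0.0031) and Slc4a1 at 0.0703-fold (0.0283 to 0.174, adjusted p = 0.00525). The globins lay from 0.154-fold for Hbb-bt (adjusted p = 0.000438) to 0.183-fold for Hba-a2 (adjusted p = 0.000501). Klf1 was also called (adjusted p = 0.0396), with 3 counts in all over replicates 11 to 14 against 197 over the 5 RvD6-standard ganglia, too few for a stable fold. Ermap (adjusted p = 0.0735) and Epor (adjusted p = 0.829) were not called. The RvD6-isomer ganglia then lay below every RvD6-standard ganglion in 8 of the 9 genes, all but Epor, against 3.21% of all genes tested. DESeq2 without that library called these 7 and Ermap (adjusted p = 0.000899), against 1.26% of genes lower.

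Precursor transcripts did not all keep a fixed ratio to the globins. Over all 5 precursor genes there were 14.1 ± 3.71 counts per 1000 globin counts in vehicle, 18.7 ± 1.89 after RvD6-standard and 18.8 ± 7.11 after RvD6-isomer (mean ± SD, n = 5 each), and the 3 ranges overlapped. Alas2 made up most of these counts and stood at 12.6 ± 3.6, 13.0 ± 1.31 and 15.7 ± 7.10 per 1000 with overlapping ranges. Slc4a1 differed, a contrast singled out after its values were seen. Per 1000 globin counts it stood at 0.668, 0.942, 0.427, 1.25 and 0.169 in vehicle and at 2.54, 4.44, 1.62, 4.34 and 5.75 after RvD6-standard, with no overlap. The RvD6-isomer ganglia overlapped both groups, at 1.02, 1.57, 1.72, 1.26 and 3.00. Epor and Ermap counts were too low in most ganglia for such a ratio to be read.

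**Figure D3:**
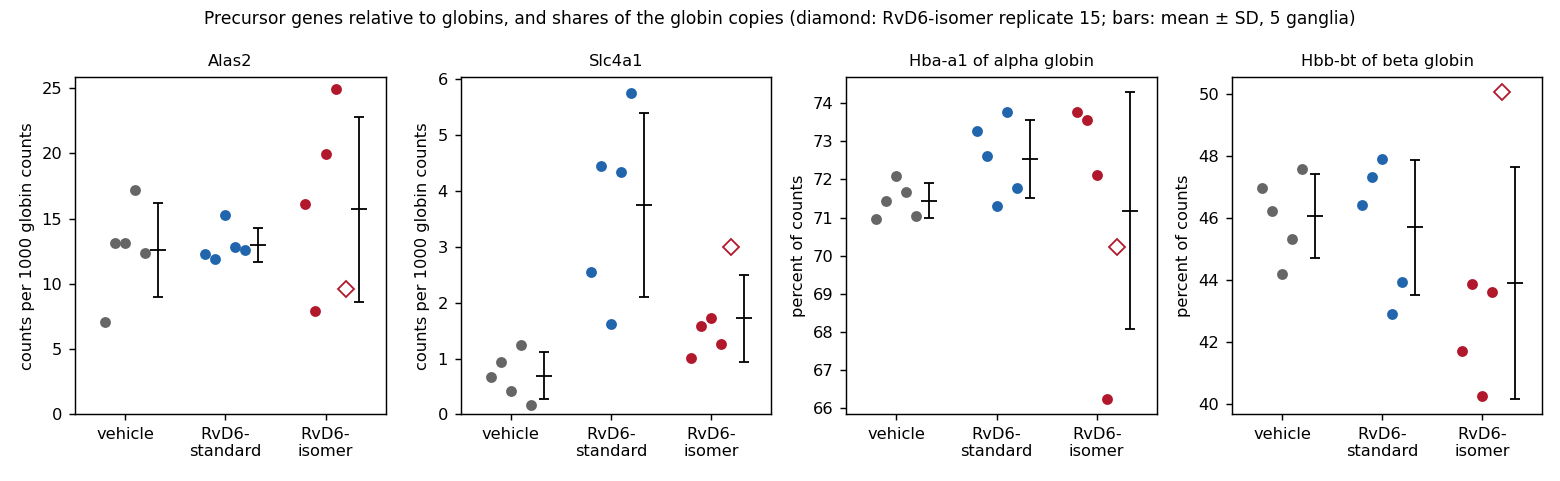
From left to right, Alas2 and Slc4a1 counts per 1000 globin counts, the share of Hba-a1 in alpha globin counts and the share of Hbb-bt in beta globin counts (percent, both on axes that do not start at 0), 1 point per ganglion with the group mean and SD (n = 5). Slc4a1 is the panel in which RvD6-standard ganglia (1.62 to 5.75) all lie above vehicle (0.169 to 1.25), while the Hbb-bt share runs from 40.3% to 50.04% over the RvD6-isomer group.

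The shares of the copies were compared within each globin. Hba-a1 held 71.4% ± 0.466 of alpha globin counts in vehicle, 72.5% ± 1.03 after RvD6-standard and 71.2% ± 3.11 after RvD6-isomer (SD, n = 5 each). Hbb-bt held 46.1% ± 1.3, 45.7% ± 2.17 and 43.9% ± 3.73 of beta globin counts in the same groups, with 44.2% to 47.6% in vehicle, 40.3% to 43.9% in RvD6-isomer replicates 11 to 14 and 50.04% in replicate 15. RvD6-isomer replicates 11 to 14 thus lay below every vehicle ganglion for this share and replicate 15 above every one, a difference seen after the values and not tested. Because only reads unique to a copy were counted, these shares describe the counted reads and not the transcripts. The beta globin rows can also differ by allele between outbred CD1 mice, which was not tested.

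Other erythroid genes were taken from 6 lists of 60 genes in all, of which 59 were found and 49 tested. Ahsp is not analysed here. None of the 49 was called by edgeR in any of the 3 comparisons with all ganglia. For RvD6-standard against vehicle 17 were higher and 0 lower at an unadjusted p below 0.05, where 7.63% of all genes were higher. DESeq2, which tested 53, called 4 higher, Lyn, Gata2, Slc25a37 and Gypc, against 0.853% of all genes. For RvD6-isomer against vehicle 4 were higher and 0 lower at that level, no larger a share than the 8.69% of all genes that were higher. DESeq2 called Slc25a37 and Dmtn of 53 genes, where it called 2.83% of all genes in either direction. For RvD6-isomer against RvD6-standard 7 were lower and 0 higher, where 4.64% of all genes were lower, and DESeq2 called Bpgm lower, against 0.412% of all genes. In these 3 comparisons the median log2 fold change of the 49 genes was 0.51, 0.31 and -0.50, beside 0.02, 0.02 and 0.00 over all genes tested.

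Genes of the red cell membrane were spread widely. In this list 13 of 14 were tested, with a median log2 fold change of 0.87 for RvD6-standard against vehicle, 11 above and 2 below 0. At an unadjusted p below 0.05, 5 were higher, where 7.63% of all genes were. Gypc, glycophorin C of the red cell surface, was 1.83-fold higher for RvD6-standard against vehicle (adjusted p = 0.0967). Rhag, the Rh-associated glycoprotein, had a log2 fold change of 3.46 (SE 1.2, adjusted p = 0.223). Icam4 had 0 counts in all 15 ganglia.

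The erythroid transcription factors tested were all higher in estimate, and all but Lmo2 and Ldb1 were low in count in vehicle. The 8 tested of 9 had a median log2 fold change of 2.00 for RvD6-standard against vehicle. At an unadjusted p below 0.05, 3 were higher, where 7.63% of all genes were. Nfe2, a factor of the erythroid and platelet lineages, had a log2 fold change of 2.70 (SE 1.18, adjusted p = 0.327), Gata2, a factor of early progenitors and mast cells, of 2.08 (SE 0.63, adjusted p = 0.181), Bcl11a of 2.06 (SE 1.03, adjusted p = 0.395) and Lmo2, a partner of Tal1, of 0.81 (SE 0.31, adjusted p = 0.27). Gata1, the central erythroid factor, had at most 1 count in each of RvD6-isomer replicates 11 to 14 and 49 in replicate 15. In vehicle it had 0 to 40 counts with a median of 0.0 CPM, and after RvD6-standard 6 to 68 counts. It was named after its values were seen.

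Genes of red cell cytoplasm, iron and maturation had the most members below an unadjusted p of 0.05. Slc25a37 (mitoferrin-1, the mitochondrial iron importer of erythroblasts) stood at 11.7 ± 5.15 CPM in vehicle, 44.1 ± 14.2 after RvD6-standard and 28.9 ± 23.6 after RvD6-isomer (n = 5 each). Its fold for RvD6-standard against vehicle was 3.76 (adjusted p = 0.0967). Trim10 had a log2 fold change of 3.51 (SE 1.21, adjusted p = 0.223), Hemgn, an erythroid nuclear protein, of 3.47 (SE 1.18, adjusted p = 0.222) and Tspan33 of 2.21 (SE 0.72, adjusted p = 0.20). In the list of 14, 12 were tested and 7 were higher at an unadjusted p below 0.05, where 7.63% of all genes were.

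The general heme enzymes did not follow Alas2. The 8 heme synthesis genes other than Alas2 had a median log2 fold change of 0.00 for RvD6-standard against vehicle, with 4 above and 4 below 0 and 0 at an unadjusted p below 0.05. Fech had a log2 fold change of 0.22 (SE 0.25, adjusted p = 0.745), Urod of -0.19 (SE 0.14, adjusted p = 0.57) and Alad of -0.20 (SE 0.18, adjusted p = 0.655). Most cells make heme with these enzymes, whereas Alas2 is particular to erythroid cells.

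In the erythropoietin receptor pathway, Epo itself had 0 counts in all ganglia and 7 of the 9 genes were tested. Lyn, a Src-family kinase also used by myeloid cells and B cells, was 3.07-fold higher after RvD6-standard (adjusted p = 0.131) and Ptpn6, a phosphatase of blood cells, 3.16-fold higher (adjusted p = 0.297). Jak2, the kinase bound to Epor, and its target Stat5b had log2 fold changes of 0.44 (SE 0.32, adjusted p = 0.582) and 0.41 (SE 0.33, adjusted p = 0.625). The embryonic globins Hbb-bh1, Hbb-bh2, Hbb-y and Hba-x had 0 counts in all 15 ganglia, and Hbq1b, a minor alpha-like globin, had a log2 fold change of 0.33 (SE 0.41, adjusted p = 0.773).

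**Figure D4:**
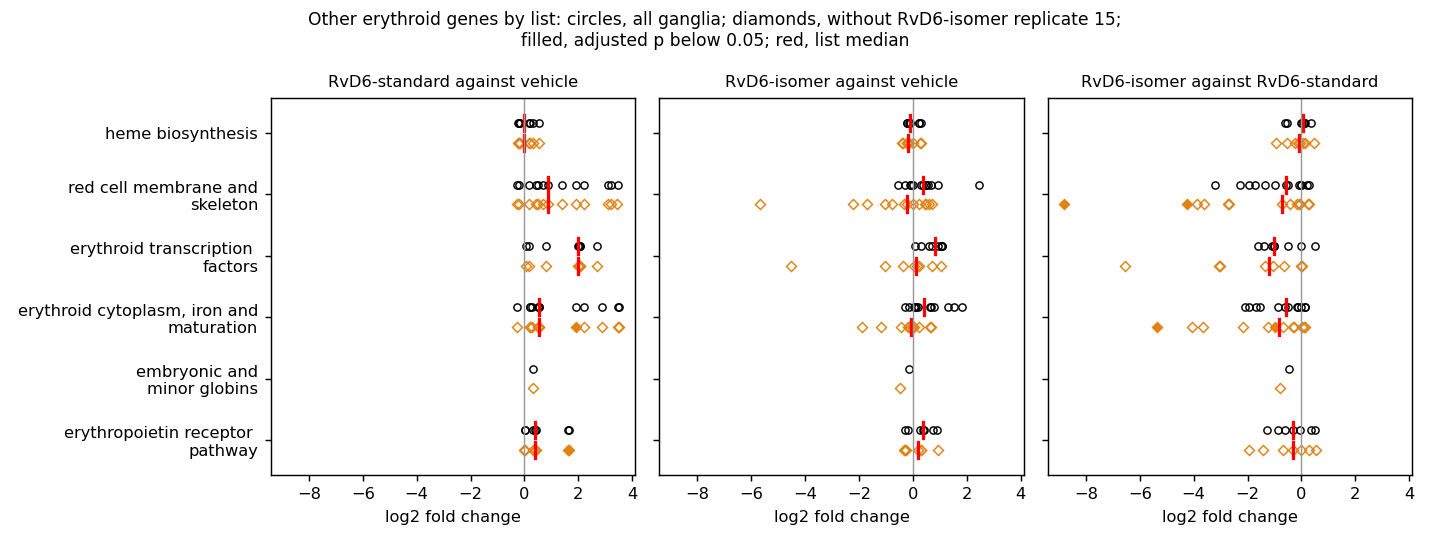
Log2 fold change (horizontal axis) of each tested gene of the 6 lists (rows) in 3 panels by comparison. Circles use all ganglia, diamonds leave out RvD6-isomer replicate 15, filled symbols have an adjusted p below 0.05 and red bars are list medians. The membrane and transcription factor lists have medians of 0.87 and 2.00 for RvD6-standard against vehicle, while the heme list sits at 0.00.

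Leaving out replicate 15 brought 4 genes of these lists below an adjusted p of 0.05 for RvD6-isomer against RvD6-standard, all lower, where 0.833% of the genes tested were called lower, and the median of the 49 was then -0.64. They included Hemgn (adjusted p = 0.0233), Bpgm (adjusted p = 0.0456), the enzyme that makes 2,3-bisphosphoglycerate, and Epb42 (adjusted p = 0.0356), a membrane skeleton protein with 0 counts in replicates 11 to 14. In the same fit Lyn (adjusted p = 0.0425) and Slc25a37 (adjusted p = 0.0228) were called higher for RvD6-standard against vehicle, where 0.293% of the genes tested were.

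Neutrophil and platelet markers moved with the erythroid genes, as did proliferation genes, and B cell markers did so in part. The summed level of 12 neutrophil and granulocyte precursor genes ranged from 141.3 to 708.2 CPM in vehicle, from 812.7 to 2619 after RvD6-standard and from 67.0 to 148.6 in RvD6-isomer replicates 11 to 14, with 2273 in replicate 15. All 12 were higher for RvD6-standard against vehicle at an unadjusted p below 0.05, where 7.63% of all genes were higher. The leading genes were Ngp and S100a9, a neutrophil granule protein and a calcium-binding alarmin. Megakaryocyte and platelet genes, led by Ppbp and Pf4, summed to 26.2 to 67.1, 77.3 to 187.7 and 15.7 to 25.4 CPM in the same order, with 216.1 in replicate 15, and Gp1ba had 0 counts in replicates 11 to 14. Proliferation genes, led by Mki67 and Top2a, summed to 14.8 to 57.5, 64.4 to 251.2 and 8.24 to 23.1 CPM, with 187.6 in replicate 15. B cell precursor genes, led by Ebf1 and Cd79b, summed to 78.8 to 108.6, 102.5 to 162.4 and 100.8 to 119.6 CPM, with 156.8 in replicate 15, and Ebf1 made up most of each sum. Cd79b stood at 6.66 ± 7.496, 14.6 ± 9.497 and 1.96 ± 0.914 CPM (n = 5, 5 and 4, without replicate 15). Ebf1 stood at 81.2 ± 8.219, 84.2 ± 6.375 and 104.6 ± 8.751 CPM in the same order and did not follow the globins. Its lowest RvD6-isomer ganglion, at 95.04 CPM, lay above its highest vehicle ganglion, at 90.3 CPM, a separation found in 2.45% of all genes tested. All 7 tested genes of the B cell precursor list were higher in estimate for RvD6-standard against vehicle, with a median log2 fold change of 1.67. Of these, 1 had an unadjusted p below 0.05, where 7.63% of all genes were higher. T and NK cell genes, led by Nkg7 and Cd4, summed to no more than 26.2 CPM, and Cd8a had 0 counts in both lipid groups and Cd3e in the RvD6-isomer group. The part of these cells in the erythroid differences was not tested.

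Markers of tissue around the ganglion, of its vessels and of its own neurons and glia were also compared. Bone and cartilage genes, led by Col1a1 and Ibsp, summed to 21.2 to 41.8 CPM in vehicle and 60.4 to 121.4 after RvD6-standard. They summed to 26.4 to 51.6 CPM in RvD6-isomer replicates 11 to 14, below every RvD6-standard ganglion, and to 94.3 in replicate 15. Acan had 0 counts in vehicle and after RvD6-isomer. Skeletal muscle genes, led by Acta1 and Myh4, summed to 15.5 to 139.6, 75.4 to 2217 and 8.61 to 26.5 CPM, and replicate 15 had the lowest of all 15 values. Endothelial genes, led by Cldn5 and Flt1, summed to 211.7 ± 26.3, 209.0 ± 26.9 and 187.5 ± 12.4 CPM (SD, n = 5 each). Of these 8 genes 2 were higher and 1 lower at an unadjusted p below 0.05 for RvD6-standard against vehicle. Of all 16567 genes tested, 1264 were higher and 992 lower at that level. Sensory neuron genes, led by Nefl and Tubb3, summed to 9758 ± 432.6, 7485 ± 1554 and 9160 ± 820 CPM. For RvD6-standard against vehicle all 9 were lower in estimate, and 6 of them had an unadjusted p below 0.05, where 992 of 16567 genes were lower. Satellite glia genes, led by Apoe and Fabp7, summed to 7370 ± 557.8, 5745 ± 640.5 and 5656 ± 845.7 CPM. Apoe made up most of each sum, at means of 6716, 5167 and 5089 CPM. Fabp7 had means of 349.2, 301.3 and 326.0 CPM, with overlapping ranges. Myelinating Schwann cell genes, led by Pmp22 and Mbp, summed to 18600 ± 3327, 16970 ± 2660 and 18500 ± 4232 CPM. Whether blood, marrow or muscle taken with the ganglion contributed to the erythroid differences was not tested.

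**Figure D5:**
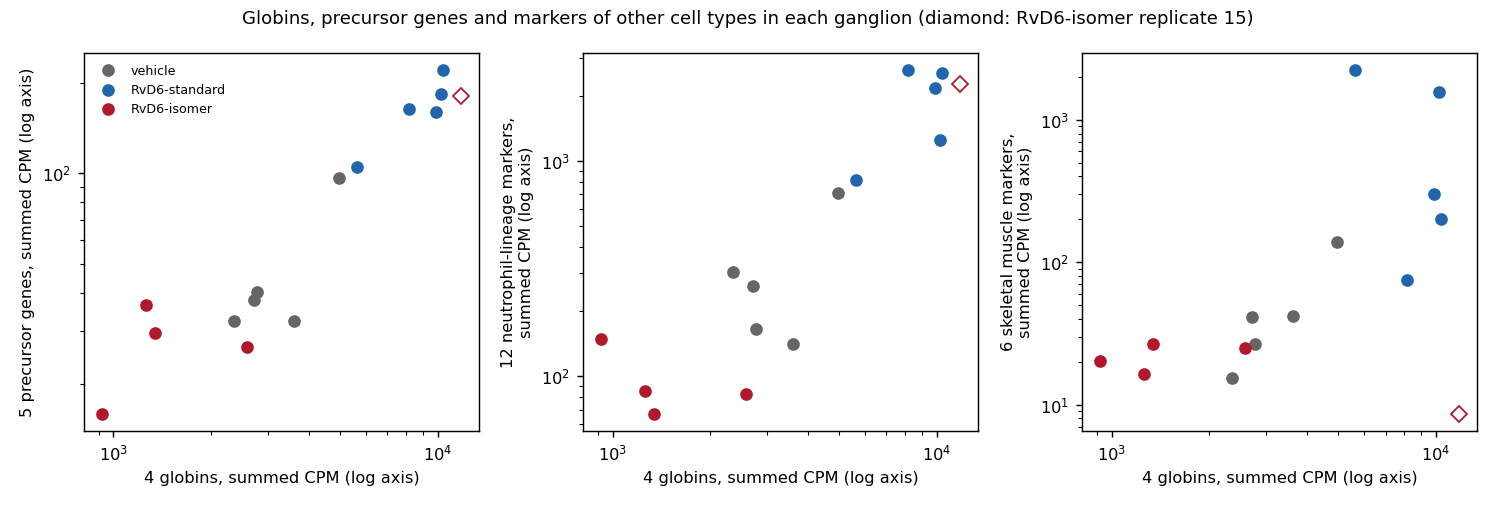
Summed CPM of the 4 globins (horizontal, log axis) against that of the 5 precursor genes, 12 neutrophil-lineage markers and 6 skeletal muscle markers (vertical, log axes), 1 point per ganglion. Replicate 15 (diamond) lies with the RvD6-standard ganglia for precursor and neutrophil genes, at 2273 CPM for the latter, but has the lowest muscle sum, 8.61 CPM.

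The genes whose levels followed the members most closely over the 15 ganglia were mostly genes of blood cells. For Hba-a1, the globin highest per kilobase, the 5 nearest genes outside the members were Hist1h2ap, a histone (Spearman rho = 0.968), Pf4, platelet factor 4 (0.961), Fcer1g, an Fc receptor chain (0.932), Ncf4, a subunit of the phagocyte oxidase (0.914), and Fcna, a ficolin (0.909). For Alas2, the highest precursor gene, they were Car1, a carbonic anhydrase of red cells (0.933), Prg2, the eosinophil major basic protein (0.932), Irf8, a myeloid factor (0.929), Hemgn (0.918) and Lyz2, a lysozyme of myeloid cells (0.914). Among the members, rho with Hba-a1 was 0.986 to 0.996 for the other globins, 0.928 for Klf1, 0.875 for Alas2, 0.843 for Slc4a1, 0.833 for Ermap and 0.44 for Epor. These values describe 15 libraries that share preparation and fall into the 3 treatment groups, and carry no test.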

How the data were processed

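Smart-seq2 libraries were made from poly(A) RNA of 15 ganglia without keeping the strand. Per the labels and the methods of the study, the authors aligned 75-cycle reads to GRCm38 with Rsubread under R 3.6.1 and counted them on GENCODE release 22 exons with featureCounts (Subread 1.6.5; the table header names 1.5.0-p1). The deposited values are raw counts per gene, without normalization, and multi-mapping or overlapping reads were not counted. Symbols came from GENCODE release 21, which names 99.7% of the identifiers. Columns were matched to groups by label.

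Counts were analysed in R 4.3.3 with the quasi-likelihood F test of edgeR 4.0.16 (TMM, minimum count of 10 and total of 15, 16567 genes, 3 groups in one fit, Benjamini-Hochberg adjustment, threshold 0.05). CPM used TMM library sizes. Intervals are 95% intervals of the log2 fold change. Alternatives were DESeq2 1.42.0, fits of 2 groups, other normalizations and filters, a length correction, summed copies and each sample left out. Shares of all genes given for DESeq2 are of the genes with a p, including those it left without an adjusted p. The steps were tested on simulated counts. The members and gene lists were chosen with earlier results of these data known. Named were all 9 members, from each other erythroid list the 4 genes with the smallest p for RvD6-standard against vehicle (no gene of these lists was called) and the 2 most abundant of each marker list, and other names are said to be added later or were called in an alternative. A few genes that this rule names are not reported here. Likeness used Spearman's rho of log2 CPM (prior count 2). Python 3.11.15, pandas 2.3.3 and matplotlib 3.10.9 were used for values and plots. Total counts limit the precision of low genes, and floors of 3 counts cover counting error only.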

Additional observations from a re-analysis of the deposited data

Results flagged for a closer look

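Values of single ganglia were examined in 48 sets of 5, and 12 held a ganglion far from the other 4 by Dixon's criterion at 5 samples (0.71), which chance meets in about 1 of 20 sets. The sets are not independent, since all 9 genes were measured in the same libraries. RvD6-isomer replicate 15 accounted for 10 of the 12. It held 3893 CPM of Hba-a1, 1651 of Hba-a2, 3147 of Hbb-bs and 3153 of Hbb-bt, where the other 4 ganglia of the group held at most 1007, 362.1, 682.1 and 532.9. Among the precursor genes it held 114.0 CPM of Alas2, 35.6 of Slc4a1, 9.06 of Klf1, 8.84 of Epor and 12.5 of Ermap, where the others held at most 31.4, 4.07, 0.433, 2.02 and 1.76. The 4 globins made up 1.27% of its counts, against at most 0.268% in the others.

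Vehicle replicate 4 held 85.2 CPM of Alas2, against 25.6 to 36.3 in the other vehicle ganglia. RvD6-standard replicate 8 held 15.2 Alas2 counts per 1000 globin counts, against 11.9 to 12.8 in the others.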

How the results depend on the processing

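No paired analysis was possible because the groups have separate replicate numbers. The number of members called for RvD6-standard against vehicle was 0 and became 2 with DESeq2, 8 with DESeq2 on the 2 groups, 5 with edgeR on the 2 groups and 1 without the filter. Leaving out single ganglia gave 0 to 4 calls for RvD6-standard against vehicle, 0 to 0 for RvD6-isomer against vehicle and 0 to 7 for RvD6-isomer against RvD6-standard. The values 4 and 7 come from leaving out RvD6-isomer replicate 15, and with DESeq2 that omission, chosen after seeing the data, gave 7, 4 and 8. It placed Hba-a2 at -1.17, Hbb-bs at -0.95, Hbb-bt at -1.15 and Slc4a1 at -0.15 on the log2 scale for RvD6-isomer against vehicle, and Epor at -0.95 against RvD6-standard. Other normalizations, globins left out of the totals, the length correction, summed copies and a minimum of 10 counts in every sample, which kept 5 members, gave 0 calls in each comparison. Without RvD6-standard replicates 8 and 9, also chosen after seeing the data, Hba-a1 was at 1.43 and Slc4a1 at 4.00 on the log2 scale against vehicle, and 0 members were called.

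No member changed sign for RvD6-standard against vehicle in any of 223 alternative values, of which 27 passed the threshold. Signs that turned in RvD6-isomer against vehicle were those of values near 0 or followed replicate 15. Hba-a1 went from -0.01 to 0.00 with either 2-group fit, 0.01 with the stricter minimum and 0.13 with the length correction, and Alas2 from -0.04 to 0.07 with the last. Leave-one-out ranges were -1.15 to 0.24 for Hba-a1, -1.18 to 0.29 for Hba-a2, -0.96 to 0.46 for Hbb-bs, -1.16 to 0.55 for Hbb-bt, -0.85 to 0.38 for Alas2, -0.14 to 2.38 for Slc4a1, -3.25 to 1.36 for Klf1 and -0.68 to 1.76 for Ermap, and for Epor against RvD6-standard -0.93 to 1.17.

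Divided by exonic length, the share of Hba-a1 was 67.3%, 68.5% and 67.0% and that of Hbb-bt 48.3%, 47.9% and 46.1% in vehicle, RvD6-standard and RvD6-isomer. That length includes the stretches common to both copies, 67.9% of those of Hba-a1 but 84.6% of those of Hba-a2, whose reads were not counted. The shares are thus not corrected for lost reads and do not show that 1 copy is expressed more. Calls over all genes were 0, 111 and 39 with edgeR and 369, 920 and 185 with DESeq2, a difference whose cause was not tested. Depth limited Klf1, Epor and Ermap, which had 0 to 28 counts per vehicle ganglion.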

Other observations

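Alpha globin counts were 1.12 ± 0.112 times beta globin counts in vehicle, 0.932 ± 0.048 after RvD6-standard and 0.964 ± 0.0987 after RvD6-isomer (SD, n = 5 each). Vehicle replicate 4, the vehicle ganglion with the most globin, had a ratio of 0.936, while the other 4 vehicle ganglia lay between 1.10 and 1.21. The ratio rests on the reads that could be given to 1 copy, and differences by allele between these outbred mice were not tested.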
